A study of Mus musculus with 10 samples.

Results

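Prl2c2 and Prl2c3 encode proliferins, secreted hormones of the prolactin family of the mouse. They were chosen by gene symbol, after earlier results of these data had shown both to be lower in treated tumours than in the negative control. They are 2 of 52324 genes in the expression table, and 2 of the 4 symbols that begin with Prl2c. Prl2c2 and Prl2c3 are near-identical copies, and the others, Prl2c1 and Prl2c5, are similar but less so. The sum over all Prl2c symbols is therefore given beside the single genes. The levels of the Prl2c genes and their differences from the negative control are the values that chose them, and are therefore described here without a test.

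Proliferins are made in the placenta by trophoblast giant cells, which line the border between embryo and mother. Cultured mouse fibroblasts also release them when growth factors or serum drive them to divide, which gave them the name mitogen-regulated proteins. Secreted proliferin binds the cation-independent mannose 6-phosphate receptor, encoded by Igf2r, and is known to draw endothelial cells into new vessels. In cultured mouse cells proliferin promoters respond to AP-1, the factor formed by Fos and Jun proteins, and to the glucocorticoid receptor.

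RNA was sequenced from whole tumours grown under the skin of mice from 4T1, a mouse mammary carcinoma cell line, and collected on day 14. The 10 libraries fall into 5 groups of 2. Mice received Free-MK1775, Free-MK1775+NLG919, Lipo-MK1775 or Lipo-MK1775+NLG, and the negative control group is named PBS in the design text. MK1775 inhibits WEE1, a kinase that holds cells back from mitosis, and NLG919 inhibits IDO1, an enzyme that breaks down tryptophan. The design text names NLG919 for the group labelled Lipo-MK1775+NLG. The make-up of the free and Lipo forms, the doses and the strain, sex and age of the host are not given in the labels. Nor do the labels tie the libraries of a group to separate mice. Each p-value therefore reflects the spread between these libraries alone, which may be technical.

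Levels are in FPKM, the fragments of a transcript divided by its length and by the mapped fragments of the library, as the authors computed them. Summed FPKM per library ran between 328253.7 and 607191.6. Mitochondrially encoded genes held 47.3% of the summed FPKM in Free-MK1775+NLG919 replicate 2, 64.1% in Lipo-MK1775 replicate 1 and 56.0% in Lipo-MK1775 replicate 2, but between 2.88% and 4.82% in the other 7 libraries. Genes reaching an FPKM of 1 numbered 10615, 9406 and 10337 in those libraries, against 12016 to 12235 in the others. Every level in these 3 libraries is thus a share of a total that mitochondrial RNA partly fills. The median log2 difference of all genes tested from the negative control was -0.37 in Free-MK1775+NLG919 and -1.08 in Lipo-MK1775, but -0.01 in Free-MK1775 and 0.03 in Lipo-MK1775+NLG. The keratins Krt8 and Krt18, which mark simple epithelium, were high in every library, between 60.1 and 357.6 FPKM. Of the other epithelial markers listed, Krt7 reached 17.5 FPKM, Cdh1 4.14 FPKM, and Epcam, Krt19 and Cldn7 at most 3.82 FPKM. Macrophage markers were plentiful too, so the libraries are from mixed tissue although the labels name cancer cells.

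Per the files, which use mouse genome build GRCm39, Prl2c3 lies on the minus strand of chromosome 13 between bases 12805705 and 12815188, and Prl2c2 on the same strand between bases 13170710 and 13179968. Prl2c5 follows on the plus strand between bases 13357300 and 13366508. From the start of Prl2c3 to the end of Prl2c5 the cluster spans 560.8 kb. Prl2c1 stands apart on the plus strand of the same chromosome, between bases 28033325 and 28041771.

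Prl2c3 and Prl2c2 share long stretches of sequence, which bears on their single-gene levels below. In GENCODE M21, the spliced coding sequences of Prl2c3 and Prl2c2 were 99.56% identical and differed at 3 of 675 bases, namely C14T, A200C and G319T (Prl2c3 base first, counted from 1 at the A of ATG). Coding identity to Prl2c3 was 96.86% for Prl2c5 and 93.93% for Prl2c1. Of all stretches of 50 bases in the Prl2c3 transcript, 21.4% occurred in no other Prl2c transcript, and of all stretches of 100 and 150 bases, 37.7% and 50.1% did. For Prl2c2 these shares were 10.5%, 33.6% and 49.1% at 50, 100 and 150 bases, and for Prl2c5 they were 66.4%, 91.3% and 100%. The read length is not given in the sources used here. The first 60 coding bases are shown to display how little separates the genes. They are printed 5′ to 3′ on the coding strand, from transcripts on build GRCm38, and a capital marks a base that differs from Prl2c3.
Prl2c3: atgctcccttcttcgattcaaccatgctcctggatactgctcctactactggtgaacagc
Prl2c2: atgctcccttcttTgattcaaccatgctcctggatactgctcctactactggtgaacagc
Prl2c5: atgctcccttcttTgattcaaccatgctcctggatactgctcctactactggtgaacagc
The stretch lies within chr13:12796978-12800012 on the minus strand for Prl2c3, chr13:13002281-13005326 on the minus strand for Prl2c2 and chr13:13182782-13185818 on the plus strand for Prl2c5. Within the stretch, Prl2c2 and Prl2c5 differ from Prl2c3 by C14T alone.

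Promoters are shown because AP-1 is a known regulator of proliferin genes. Those of Prl2c3 and Prl2c5 were in the source used, and those of Prl2c2 and Prl2c1 were not. Each line gives 250 bases before the transcription start from RefSeq on build GRCm38.p6, at chr13:12800080-12800329 on the minus strand for Prl2c3 and chr13:13182466-13182715 on the plus strand for Prl2c5. Capitals mark matches to the AP-1 motif TGANTCA, searched on both strands, and to TATAA, searched on the sense strand only. The motifs do not overlap each other.
Prl2c3: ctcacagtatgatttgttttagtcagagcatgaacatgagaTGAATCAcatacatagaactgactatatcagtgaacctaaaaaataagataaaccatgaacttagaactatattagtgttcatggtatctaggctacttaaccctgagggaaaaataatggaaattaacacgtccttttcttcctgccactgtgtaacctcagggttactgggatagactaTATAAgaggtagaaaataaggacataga
Prl2c5: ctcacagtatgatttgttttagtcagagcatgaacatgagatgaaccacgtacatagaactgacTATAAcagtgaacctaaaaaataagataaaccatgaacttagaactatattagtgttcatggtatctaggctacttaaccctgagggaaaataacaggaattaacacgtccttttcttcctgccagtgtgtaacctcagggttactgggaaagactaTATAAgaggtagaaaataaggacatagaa
The windows were 96.79% identical, with 8 differences over 249 aligned bases. Prl2c3 held TGAATCA at -209 from the start. At the same place Prl2c5 had TGAACCA, a change of T5C counted from the first base of the motif, and held no AP-1 match. Of 32851 promoters searched over the same 250 bases, 6.75% held the AP-1 motif. A TATAA match stood at -28 in Prl2c3 and at -186 and -29 in Prl2c5, and 16.0% of promoters held one. The glucocorticoid receptor motif GNACANNNTGTNC, searched on both strands, was in neither window, and 0.39% of promoters held it.

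The Prl2c sum was lower in all 8 treated libraries than in the negative control. It was 14.2 and 15.7 FPKM in Free-MK1775 tumours and 0.74 and 0 FPKM in Free-MK1775+NLG919 tumours. The sum was 2.37 and 5.49 FPKM in Lipo-MK1775 tumours and 5.90 and 3.83 FPKM in Lipo-MK1775+NLG tumours, against 38.7 and 39.5 FPKM in the negative control. No treated library reached either control library, and the control libraries lay close together. Among all genes tested, 10.2% had all 8 treated libraries below both control libraries; since the genes were chosen for this pattern, nothing is read from that comparison.

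The order of the groups was the negative control, then Free-MK1775, Lipo-MK1775+NLG, Lipo-MK1775 and Free-MK1775+NLG919. Lipo-MK1775+NLG and Lipo-MK1775 overlapped and do not differ beyond their spread, whereas all other neighbours in the order had no overlap. Free-MK1775 averaged 14.9 ± 1.06 FPKM (SD, n = 2), 38.2% of the mean of the negative control. Lipo-MK1775 averaged 3.93 ± 2.21 FPKM and Lipo-MK1775+NLG 4.87 ± 1.46 FPKM, against 39.1 ± 0.531 FPKM in the negative control (SD, n = 2 each). These are 10.1% and 12.5% of the control mean. In bulk tumours, fewer cells that make proliferin and less proliferin RNA per cell cannot be told apart.

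**Figure D1:**
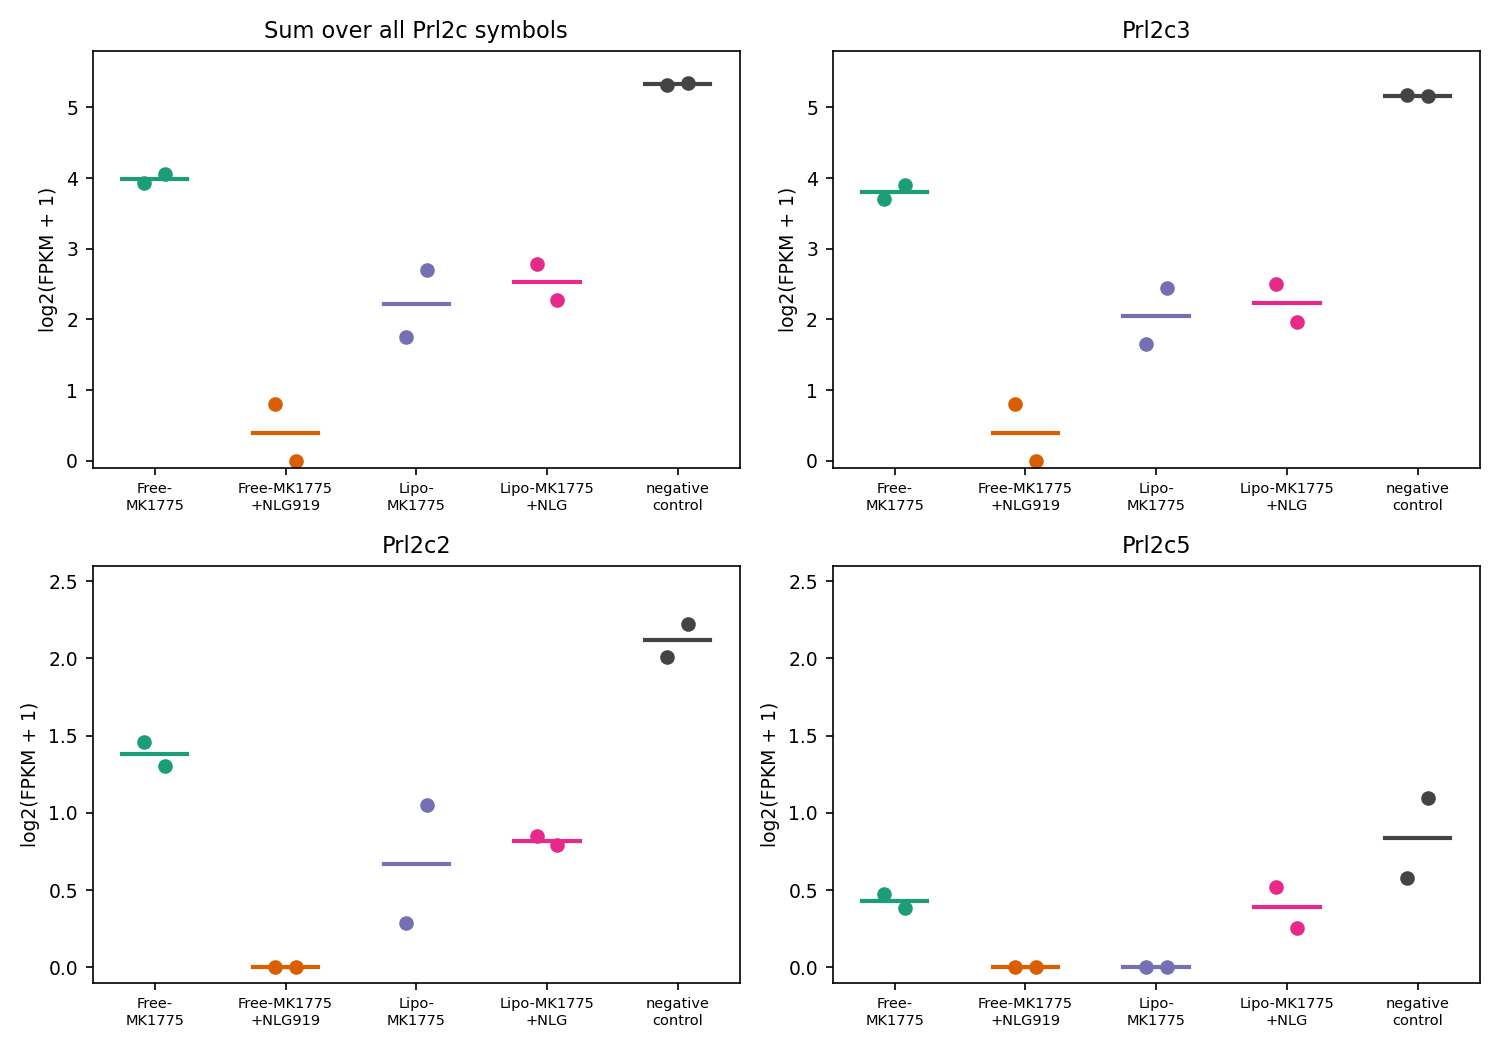
Levels of the Prl2c sum, Prl2c3, Prl2c2 and Prl2c5 on the log2(FPKM + 1) scale, with the 5 groups on the horizontal axis. Points are libraries and lines are means over 2 libraries. In the panel of the sum, both Free-MK1775+NLG919 libraries are lowest, both Free-MK1775 libraries are the highest treated ones and the negative control libraries stand above all treated ones.

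On the log2(FPKM + 1) scale, the Prl2c sum differed from the negative control by -1.33 in Free-MK1775, -4.93 in Free-MK1775+NLG919, -3.10 in Lipo-MK1775 and -2.79 in Lipo-MK1775+NLG, each with an SE of 0.40 from the fit across all genes. The groups did not overlap in any of these 4 comparisons, and the direction held under every alternative tried. A lower value without overlap was found for 19.8% of all genes tested in Free-MK1775, 33.9% in Free-MK1775+NLG919, 86.4% in Lipo-MK1775 and 22.7% in Lipo-MK1775+NLG. The value for Lipo-MK1775 depends on how libraries are scaled and was -1.86 with median-of-ratios scaling, which sets the typical gene level between libraries. The value for Free-MK1775+NLG919 depends on the pseudocount, since replicate 2 is listed at 0. It was -6.18 with nuclear genes alone rescaled, which also raises every nonzero level, so that the pseudocount of 1 weighs less. The part of the scaling itself was not separated.

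Treated groups were also lower when mitochondrial genes were left out of the total. With nuclear genes alone rescaled to sum to 1000000, the Prl2c sum was 41.7 and 50.6 in Free-MK1775, 2.08 and 0 in Free-MK1775+NLG919, 13.5 and 23.4 in Lipo-MK1775, and 18.4 and 11.5 in Lipo-MK1775+NLG, against 128 and 124 in the negative control. Treated libraries again lay below both control libraries, and only the overlapping Lipo-MK1775 and Lipo-MK1775+NLG groups changed places in the order of means. Free-MK1775+NLG919 replicate 1, where mitochondrial genes held 2.88%, had a Prl2c sum of 0.74 FPKM, the lowest of the 7 libraries with a low mitochondrial share. That value stands for an estimated 26.5 fragments, against 1571.0 and 1249.8 in the negative control. These estimates use the product of FPKM and length in genes with a single transcript of a single exon. The most frequent value above 0 in each library is assumed to be a single fragment. It rests on 23 to 45 transcripts per library, and the estimates carry that uncertainty.

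Differences between treated groups are given as values. The Prl2c sum was lower in Free-MK1775+NLG919 than in Free-MK1775 by a log2 difference of -3.59 (SE 0.40), with no overlap. Between Lipo-MK1775+NLG and Lipo-MK1775 the difference was 0.31 (SE 0.40) and the libraries overlapped. Between Lipo-MK1775 and Free-MK1775 it was -1.77, and between Lipo-MK1775+NLG and Free-MK1775+NLG919 it was 2.13, both without overlap and with an SE of 0.40. Doses are not given, and whether the effect of NLG919 differs between the forms was not tested.

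Prl2c3 made up most of the sum. It was at 12.1 and 13.9 FPKM in Free-MK1775, 0.74 and 0 FPKM in Free-MK1775+NLG919, 2.15 and 4.42 FPKM in Lipo-MK1775 and 4.67 and 2.91 FPKM in Lipo-MK1775+NLG, against 35.2 and 34.6 FPKM in the negative control. Its order of groups is that of the sum, and only Lipo-MK1775+NLG and Lipo-MK1775 overlapped. The mean was 37.2% of that in the negative control in Free-MK1775, 9.40% in Lipo-MK1775 and 10.8% in Lipo-MK1775+NLG. The log2 differences from the negative control were -1.36, -4.77, -3.12 and -2.93 in Free-MK1775, Free-MK1775+NLG919, Lipo-MK1775 and Lipo-MK1775+NLG, each with an SE of 0.39. Prl2c3 passed the filter on low values, which asks for an FPKM of 1 or more in 2 libraries, with 8 libraries at that level.

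Prl2c2 had the same order of groups at a lower level, as far as the copies can be separated. Prl2c3 exceeded it 3.99 to 11.6 times in the libraries where both were above 0. It was at 1.75 and 1.46 FPKM in Free-MK1775, listed at 0 in both Free-MK1775+NLG919 libraries, 0.219 and 1.08 FPKM in Lipo-MK1775 and 0.802 and 0.729 FPKM in Lipo-MK1775+NLG, against 3.03 and 3.66 FPKM in the negative control. All treated libraries were below both control libraries, and Lipo-MK1775+NLG lay within the range of Lipo-MK1775. The log2 differences were -0.74 in Free-MK1775, -1.45 in Lipo-MK1775 and -1.30 in Lipo-MK1775+NLG, each with an SE of 0.31; in Free-MK1775+NLG919 the value of -2.12 depends on the pseudocount. The gene passed the filter with 5 libraries at 1 or more, among them both control and both Free-MK1775 libraries. Prl2c2 thus passed mainly through the groups where it is high, and Prl2c3 through all groups but Free-MK1775+NLG919.

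Prl2c5 and Prl2c1 did not pass the filter. Prl2c5 was at 0.389 and 0.304 FPKM in Free-MK1775 and 0.435 and 0.193 FPKM in Lipo-MK1775+NLG, against 0.492 and 1.14 FPKM in the negative control. Of the 1.14 FPKM, 0.850 came from an assembled transcript seen in negative control replicate 2 alone. With only transcripts that carry a symbol, the negative control was at 0.492 and 0.289 FPKM, and both of these treated groups overlapped it. Prl2c5 was listed at 0 in all 4 libraries of Free-MK1775+NLG919 and Lipo-MK1775. Prl2c1 was listed at 0 in all 10 libraries.

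Prl2c3 was the main copy in every library above 0. It held 85.0% and 88.7% of the sum in Free-MK1775, 90.8% and 80.4% in Lipo-MK1775 and 79.0% and 75.9% in Lipo-MK1775+NLG, against 90.9% and 87.8% in the negative control. It held all of the sum in Free-MK1775+NLG919 replicate 1, and no share exists for replicate 2. The share in Lipo-MK1775+NLG lay below both control libraries, while Lipo-MK1775 overlapped the control range. How the assembly divided reads between such similar copies is uncertain, so a shift between copies cannot be separated from a shift in that division.

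**Figure D2:**
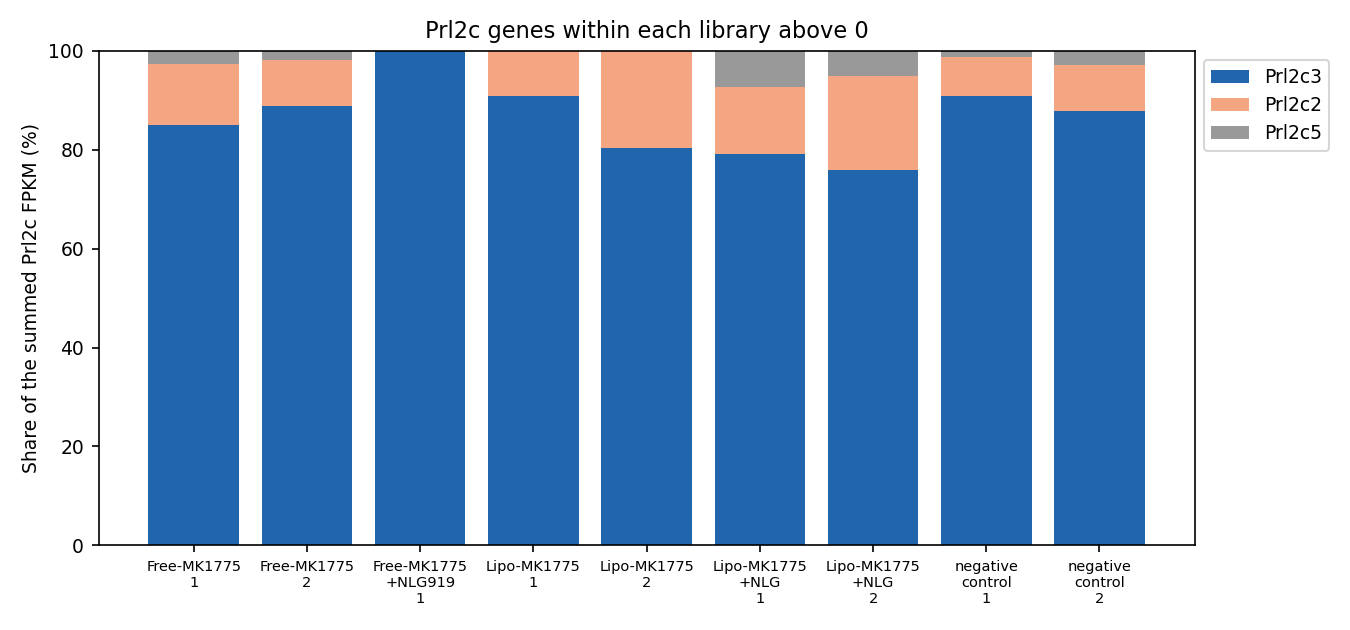
Share of the summed Prl2c FPKM in percent held by Prl2c3, Prl2c2 and Prl2c5, in the 9 libraries with a sum above 0. Free-MK1775+NLG919 replicate 2 is not drawn because its sum is 0. Prl2c3 is the tallest part of each bar, at 75.9% or more.

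The Prl2c genes have 18 transcripts in the table, of which 16 carry a symbol, and 10 of these belong to Prl2c2 and Prl2c3. The main transcript of Prl2c3, ENSMUST00000099805, has 5 exons. It was at 10.7 and 11.3 FPKM in Free-MK1775, 0.60 and 0 FPKM in Free-MK1775+NLG919, 2.05 and 3.83 FPKM in Lipo-MK1775 and 4.55 and 2.74 FPKM in Lipo-MK1775+NLG, against 30.2 and 26.6 FPKM in the negative control. Each treated library was again below both control libraries. This transcript held between 76.9% and 97.4% of the Prl2c3 level in the libraries above 0.

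A second Prl2c3 transcript, ENSMUST00000222139, was at 0.837 and 2.14 FPKM in Free-MK1775, against 2.30 and 5.27 FPKM in the negative control, and at most 0.188 FPKM in the other treated groups. Free-MK1775 lay below both control libraries, by a narrow gap. The main transcript of Prl2c2, ENSMUST00000110594, was at 1.65 and 1.03 FPKM in Free-MK1775, listed at 0 in Free-MK1775+NLG919, 0.219 and 0.660 FPKM in Lipo-MK1775 and 0.515 and 0.729 FPKM in Lipo-MK1775+NLG, against 2.73 and 2.22 FPKM in the negative control. Its order was that of the gene. Minor transcripts did not all share this order: ENSMUST00000126540 of Prl2c5 was at 0.389 and 0.304 FPKM in Free-MK1775 and listed at 0 in the negative control. An assembled transcript without a symbol at the Prl2c3 locus was at most 0.363 FPKM in the treated libraries, against 1.07 and 2.45 FPKM in the negative control. With only transcripts that carry a symbol, the Prl2c sum was 13.8 and 15.6 FPKM in Free-MK1775 and 0.74 and 0 FPKM in Free-MK1775+NLG919, against 37.6 and 36.2 FPKM in the negative control.

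Outside the Prl2c genes the prolactin family was low or absent. Of 22 further family members, all in the table, 13 were listed at 0 in every library and 1, Prl8a9, passed the filter. Prl8a9 encodes another placental member of the family. It was at 0.458 and 0.615 FPKM in Free-MK1775, listed at 0 in both Free-MK1775+NLG919 libraries, 0 and 0.192 FPKM in Lipo-MK1775 and 0.646 and 0 FPKM in Lipo-MK1775+NLG, against 1.38 and 5.02 FPKM in the negative control. All treated libraries were lower than both control libraries, which themselves differed more than those of the Prl2c sum. The highest level of any other family member was 0.870 FPKM, for Prl6a1 in negative control replicate 2.

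Prl8a9 reached an FPKM of 1 in the 2 negative control libraries alone and passed the filter through them, so the filter favoured a lower level in treated groups and its differences are given without a test. On the log2(FPKM + 1) scale they were -1.30 in Free-MK1775, -1.92 in Free-MK1775+NLG919, -1.80 in Lipo-MK1775 and -1.56 in Lipo-MK1775+NLG (SE 0.39 each). The value in Free-MK1775+NLG919 depends on the pseudocount, since both libraries are listed at 0, and was -4.78 with a pseudocount of 0.1.

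Placental genes as a list were mostly absent: of 26 genes of trophoblast and placenta, 3 passed the filter. These were Psg17, a pregnancy-specific glycoprotein, Tfap2c, a transcription factor of trophoblast and epithelium, and Phlda2, an imprinted gene that limits placental growth. Calls were made by limma's moderated test, with Benjamini-Hochberg adjustment over all 12820 genes tested. None of the 3 was called in Free-MK1775, Free-MK1775+NLG919 or Lipo-MK1775+NLG. Of all genes tested, 0.0078%, 0.429% and 0.0156% were called there, in that order. All 3 were called lower in Lipo-MK1775, where 65.2% of all genes tested were. There the call of Phlda2 was lost in 11 of 18 alternatives and its sign turned in 1, median-of-ratios scaling (0.32). In Free-MK1775+NLG919 the differences were -0.89 for Psg17, -0.64 for Tfap2c and 0.56 for Phlda2. Psg17 reached an FPKM of 1 only in the negative control and Free-MK1775 libraries and passed the filter through them. This favoured a lower level in the other treated groups, so nothing is read from its differences or its call there. Gcm1, Tpbpa and Ctsq, which define trophoblast layers, were among 15 of the 26 genes listed at 0 in all libraries. Others that did not pass the filter were above 0 at low levels. Among these, Psg19 reached 1.09 FPKM, Syna 0.507 FPKM, Eomes 0.442 FPKM and Hand1 0.184 FPKM.

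Receptors were present throughout. Igf2r, the receptor that takes up proliferin, was at 26.6 and 42.5 FPKM in Free-MK1775, 28.2 and 5.51 FPKM in Free-MK1775+NLG919, 4.62 and 5.79 FPKM in Lipo-MK1775 and 36.7 and 26.6 FPKM in Lipo-MK1775+NLG, against 35.7 and 34.8 FPKM in the negative control. Only the 3 libraries with a high mitochondrial share were far below the controls. Prlr, the prolactin receptor, was at most 0.0313 FPKM and was not tested.

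None of the 3 receptors tested was called in Free-MK1775, Free-MK1775+NLG919 or Lipo-MK1775+NLG. Of all genes tested, 0.0078%, 0.429% and 0.0156% were called there, in that order. In Free-MK1775+NLG919 the log2 differences were -1.39 (SE 0.53) for Igf2r, -0.48 for M6pr, the cation-dependent mannose 6-phosphate receptor, and 0.34 for Ghr, the growth hormone receptor. All 3 were called lower in Lipo-MK1775, where 65.2% of all genes tested were and their median was -1.08. There the sign turned to 0.15 for M6pr and 0.074 for Ghr with median-of-ratios scaling.

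Of 8 AP-1 genes, 1 fell in Free-MK1775+NLG919, namely Fosl1, where 0.359% of all genes tested were called lower. All 8 AP-1 genes had a lower mean there, with a median log2 difference of -1.21 against -0.37 for all genes tested. Fosl1, the AP-1 subunit also called Fra-1, was at 16.4 and 22.7 FPKM in Free-MK1775, 7.69 and 6.78 FPKM in Free-MK1775+NLG919, 5.30 and 5.68 FPKM in Lipo-MK1775 and 16.9 and 19.5 FPKM in Lipo-MK1775+NLG, against 30.9 and 26.8 FPKM in the negative control. All treated libraries were below both control libraries. Mitochondrial genes held 2.88% and 47.3% of the FPKM in Free-MK1775+NLG919 replicates 1 and 2, and the part of that share in the Fosl1 levels was not tested.

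In the limma test Fosl1 fell in Free-MK1775+NLG919 by 1.86 (SE 0.33, adjusted p = 0.0296) and in Lipo-MK1775 by 2.20 (SE 0.33, adjusted p = 0.00253). All 8 AP-1 genes were called lower in Lipo-MK1775, where 65.2% of all genes tested were, and none in Free-MK1775 or Lipo-MK1775+NLG, where the medians were -0.21 and -0.38. The call in Free-MK1775+NLG919 ended in 9 of 19 alternatives, among them when negative control replicate 1 (-1.76), negative control replicate 2 (-1.96), Free-MK1775+NLG919 replicate 2 (-1.78) or either Lipo-MK1775 library (-1.86) was left out, and with median-of-ratios scaling (-1.38). The call in Lipo-MK1775 ended without Lipo-MK1775 replicate 1 (-2.16) and with median-of-ratios scaling (-0.89).

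**Figure D3:**
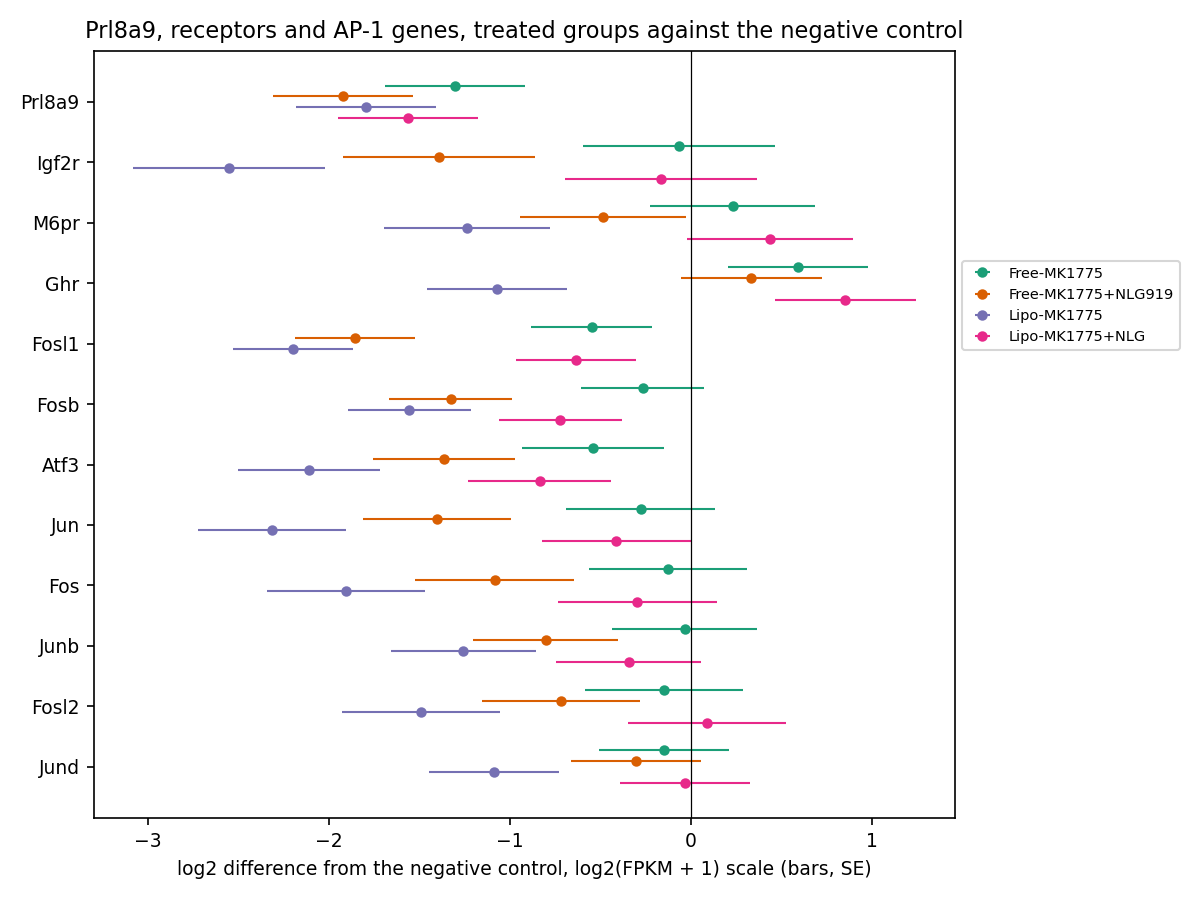
Log2 differences from the negative control on the log2(FPKM + 1) scale for Prl8a9, the receptors Igf2r, M6pr and Ghr, and the 8 AP-1 genes. Points are the 4 treated groups against the negative control and bars are the SE. The points of Lipo-MK1775 lie farthest to the left for every gene but Prl8a9, where Free-MK1775+NLG919 does.

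The glucocorticoid receptor and its targets gave no call in Free-MK1775+NLG919, where 0.429% of all genes tested were called. Of the 7 genes tested, 7 were lower in mean, with a median of -0.73 against -0.37 for all genes tested. The differences with the smallest unadjusted p were -1.70 (SE 0.38, adjusted p = 0.0721 by limma) for Sgk1, a kinase induced by glucocorticoids, -1.80 (SE 0.43, adjusted p = 0.0953) for the clock gene Per1, and -1.44 (SE 0.43, adjusted p = 0.152) for Nr3c1, the receptor itself. Sgk1 was at 25.7 and 11.8 FPKM there, against 59.9 and 57.7 FPKM in the negative control, without overlap. A lower value without overlap was found there for 33.9% of all genes tested. In Lipo-MK1775 all 7 were called lower, beside 65.2% of all genes tested, and in Free-MK1775 and Lipo-MK1775+NLG none was called.

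JAK2-STAT5 signalling, the pathway below prolactin receptors, gave no call among 8 genes in Free-MK1775+NLG919, where 0.429% of all genes tested were called. It gave 5 lower in Lipo-MK1775, beside 65.2% of all genes tested. In Free-MK1775+NLG919 the genes with the smallest unadjusted p had differences of -1.49 for Socs3, a feedback inhibitor, -0.95 for Stat3 and -0.74 for Stat5a, both transcription factors. Growth factors and their receptors, which switch proliferin on in culture, gave no call among 8 genes tested there and 8 lower in Lipo-MK1775, beside the same 65.2%. Hbegf, a ligand of the EGF receptor, had a difference of -1.82 (SE 0.42, adjusted p = 0.0742 by limma) in Free-MK1775+NLG919 and Tgfa, another such ligand, -0.90. Pdgfa, a platelet-derived growth factor, had 1.04, the opposite sign. No gene of these lists was called in Free-MK1775 or Lipo-MK1775+NLG, where 0.0078% and 0.0156% of all genes tested were.

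Vessel genes, on which proliferin is known to act, gave no call among 18 tested in Free-MK1775+NLG919, where 0.429% of all genes tested were called. Of the 18, 15 had a lower mean there, and the median was -0.37, as was that of all genes tested. Vegfd, a growth factor of lymphatic vessels, was at 0.0746 and 0 FPKM there, against 1.81 and 1.24 FPKM in the negative control. Its log2 difference of -1.27 is given without a test. Vegfd reached an FPKM of 1 only in the negative control libraries and Free-MK1775 replicate 2 and passed the filter through them. The filter thus favoured a lower level in the other treated groups, and nothing is read from the part of Vegfd in the counts. Kdr, the main VEGF receptor of endothelium, had -0.95, and Vegfc, a lymphatic growth factor, had 0.88. In Lipo-MK1775, 14 of the 18 were called lower, beside 65.2% of all genes tested, and in Free-MK1775 and Lipo-MK1775+NLG none was called.

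Over all lists, markers of cell types included, 93 genes were tested. In Free-MK1775+NLG919, 4 were called, namely Fosl1, Cdh1, Cpa3 and Prl8a9, all lower, where 0.429% of all genes tested were called in either direction. Of these, Prl8a9 passed the filter through the negative control alone, which favoured a lower level in treated groups. Its calls here and in Lipo-MK1775 are in the counts, but nothing is read from them. In Lipo-MK1775, 61 of the 93 were called, where 66.4% of all genes were, so that the share lies near the background. In Free-MK1775 and Lipo-MK1775+NLG none of the 93 was called, where 0.0078% and 0.0156% of all genes tested were called and 108 and 183 genes had an unadjusted p under 0.05. With median-of-ratios scaling 15 list genes were called in Lipo-MK1775 and 0 in Free-MK1775+NLG919. Without Lipo-MK1775 replicate 1, 0 were called in Lipo-MK1775, and without Free-MK1775+NLG919 replicate 2, 0 were called in Free-MK1775+NLG919, while without its replicate 1 there were 52.

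Among markers of the cell types that the tumours could hold, those of mast cells were lower with the Prl2c sum in part of the groups. The summed level of 5 mast cell markers was 9.8 and 19.5 FPKM in Free-MK1775, 4.4 and 4.8 FPKM in Free-MK1775+NLG919, 2.7 and 26.9 FPKM in Lipo-MK1775 and 14.6 and 32.7 FPKM in Lipo-MK1775+NLG, against 45.1 and 30.4 FPKM in the negative control. Lipo-MK1775+NLG replicate 2 lay within the control range although its Prl2c sum was low, at 3.83 FPKM. Cpa3, a protease of mast cell granules, fell in Free-MK1775+NLG919 by 2.56 (SE 0.43, adjusted p = 0.0188 by limma); the call ended in 7 of 19 alternatives, among them without negative control replicate 1 (-2.36) or Free-MK1775+NLG919 replicate 2 (-2.62). The part of mast cells in the Prl2c levels was not tested.

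Markers of skin differed widely between libraries of a group. Their 6 genes summed to 2.2 and 106.0 FPKM in Free-MK1775, 1.9 and 1.3 FPKM in Free-MK1775+NLG919, 0.3 and 1.2 FPKM in Lipo-MK1775 and 2.3 and 321.5 FPKM in Lipo-MK1775+NLG, against 353.2 and 1.8 FPKM in the negative control. The control libraries thus lay far apart for skin while their Prl2c sums were 38.7 and 39.5 FPKM. The 6 endothelial markers summed to 46.7 and 37.4 FPKM in Free-MK1775, 32.7 and 16.2 FPKM in Free-MK1775+NLG919, 8.5 and 7.3 FPKM in Lipo-MK1775 and 40.6 and 33.7 FPKM in Lipo-MK1775+NLG, against 43.9 and 35.2 FPKM in the negative control. In Free-MK1775 they overlapped the control range, where the Prl2c sum did not.

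Markers of tumour epithelium, 7 genes dominated by Krt8 and Krt18, summed to 503.1 and 602.9 FPKM in Free-MK1775, 480.8 and 331.4 FPKM in Free-MK1775+NLG919, 191.8 and 393.5 FPKM in Lipo-MK1775 and 584.9 and 524.7 FPKM in Lipo-MK1775+NLG, against 405.4 and 608.8 FPKM in the negative control. Free-MK1775 and Lipo-MK1775+NLG lay within the control range. Cdh1, which encodes E-cadherin, fell in Free-MK1775+NLG919 by 1.65 (SE 0.34, adjusted p = 0.0478 by limma). That call was lost in 15 of 19 alternatives. Among them were leaving out negative control replicate 1 (-1.33), Free-MK1775+NLG919 replicate 2 (-1.49), either Free-MK1775 library, either Lipo-MK1775 library or Lipo-MK1775+NLG replicate 2 (each -1.65). A pseudocount of 0.1 (-2.99) and nuclear rescaling (-2.49), under which the pseudocount also weighs less, were others.

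The summed levels of fibroblast, macrophage and neutrophil markers in Lipo-MK1775+NLG did not overlap those in the negative control. In Lipo-MK1775+NLG fibroblast markers summed to 98.7 and 125.3 FPKM, lower than the 177.2 and 150.3 FPKM in the negative control. Of 6 tested, 4 were lower without overlap, where 22.7% of all genes tested were. Pdgfra went the other way, at 22.9 and 22.6 FPKM, against 11.4 and 12.9 FPKM in the negative control. Macrophage markers summed to 705.4 and 783.1 FPKM, against 464.2 and 625.2 FPKM, and neutrophil markers to 743.7 and 585.0 FPKM, against 419.4 and 306.4 FPKM, both higher than in the negative control. No gene of these 3 lists was called there, where 0.0156% of all genes tested were. The share of all genes that were higher without overlap was not computed, so nothing is read from the higher macrophage and neutrophil sums. Over the other 3 treated groups, fibroblast markers ran from 51.1 to 193.2 FPKM, macrophage markers from 342.4 to 1113.2 FPKM and neutrophil markers from 112.2 to 562.4 FPKM. Muscle markers ran from 3.1 to 154.6 FPKM in treated libraries, against 80.1 and 21.2 FPKM, and adipocyte markers from 6.0 to 31.0 FPKM, against 25.3 and 15.3 FPKM in the negative control. Whether any of these cell types carries the proliferin RNA was not tested.

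**Figure D4:**
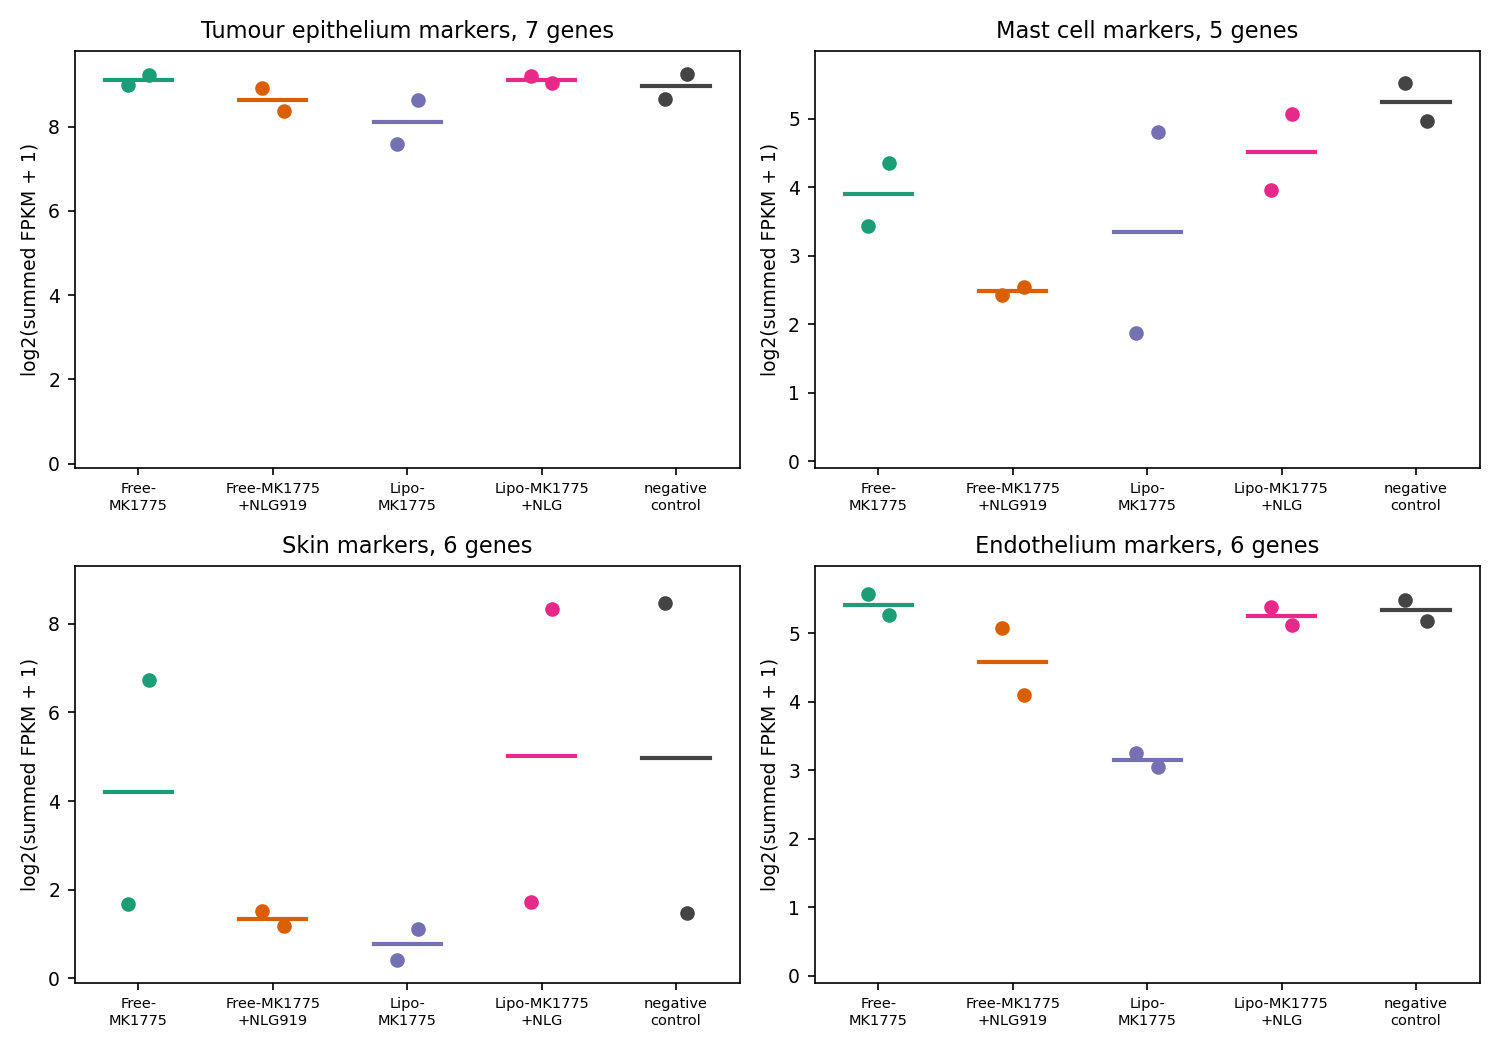
Summed level of the markers of tumour epithelium, mast cells, skin and endothelium on the log2(summed FPKM + 1) scale, with the 5 groups on the horizontal axis. Points are libraries and lines are means over 2 libraries. Skin markers are far apart within the negative control, at 353.2 and 1.8 FPKM.

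The genes beside the cluster were also read. The nearest tested and named genes are Ero1b, an endoplasmic reticulum oxidase 175.8 kb before Prl2c3, Lgals8, a galectin 325.9 kb before it, Gpr137b, a lysosomal membrane protein 161.5 kb after Prl2c5, and Nid1, a basement membrane protein 245.6 kb after it. In Free-MK1775 their log2 differences were 0.03, 0.05, -0.30 and -0.02, in that order, and in Lipo-MK1775+NLG 0.02, 0.08, -0.04 and -0.46. In Free-MK1775+NLG919 they were -0.69, -0.45, -1.15 and -0.81, and none of these was called, where 0.429% of all genes tested were. All 4 were called lower in Lipo-MK1775, beside 65.2% of all genes tested, between -1.90 and -1.32, where Lgals8 stood at 0.010 with median-of-ratios scaling. The difference between these genes and the Prl2c genes was not tested.

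The genes most like the Prl2c sum over the 10 libraries, by Pearson correlation of log2(FPKM + 1), were Ccnb1ip1, Kif17, Rsph1, Vegfd, Arl4a and Serpind1, with r of 0.968, 0.943, 0.942, 0.942, 0.939 and 0.932. The correlation is a description over libraries that share treatment groups and mitochondrial share, and its median over 12818 genes was 0.431. It was 0.9 or more for 17 genes. Kif17, a kinesin motor, was at 2.85 and 2.54 FPKM in Free-MK1775, 0.371 and 0.318 FPKM in Free-MK1775+NLG919, 0.166 and 0.990 FPKM in Lipo-MK1775 and 1.85 and 0.828 FPKM in Lipo-MK1775+NLG, against 4.26 and 6.05 FPKM in the negative control. Serpind1, which encodes the thrombin inhibitor heparin cofactor II, was at 1.19 and 1.43 FPKM in Free-MK1775 and 0.187 and 0 FPKM in Free-MK1775+NLG919, against 2.76 and 2.48 FPKM in the negative control. Both genes had Free-MK1775+NLG919 below Free-MK1775 below the negative control. They were chosen for following the Prl2c sum in these libraries, so this shared order is no separate result. In Lipo-MK1775, where Serpind1 was at 0.212 and 0.183 FPKM, both genes overlapped Free-MK1775+NLG919, unlike the Prl2c sum.

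Over the 7 libraries with a low mitochondrial share the 6 most like genes were Chchd10, Elk3, Ppil4, Cit, Htr5b and Arl4a, with r between 0.980 and 0.989, and 168 genes reached 0.9. Ccnb1ip1, Serpind1 and Kif17 ranked 8, 10 and 11 over these 7 libraries, just past the cut at 6 names, and Rsph1 and Vegfd 153 and 165. Arl4a, a small GTP-binding protein, is the 1 gene named in both sets. It was at 5.76 and 6.75 FPKM in Free-MK1775, 3.32 and 2.48 FPKM in Free-MK1775+NLG919, 3.67 and 3.06 FPKM in Lipo-MK1775 and 4.82 and 3.94 FPKM in Lipo-MK1775+NLG, against 8.21 and 7.42 FPKM in the negative control. All treated libraries were below both control libraries, by a smaller ratio than for the Prl2c genes.

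**Figure D5:**
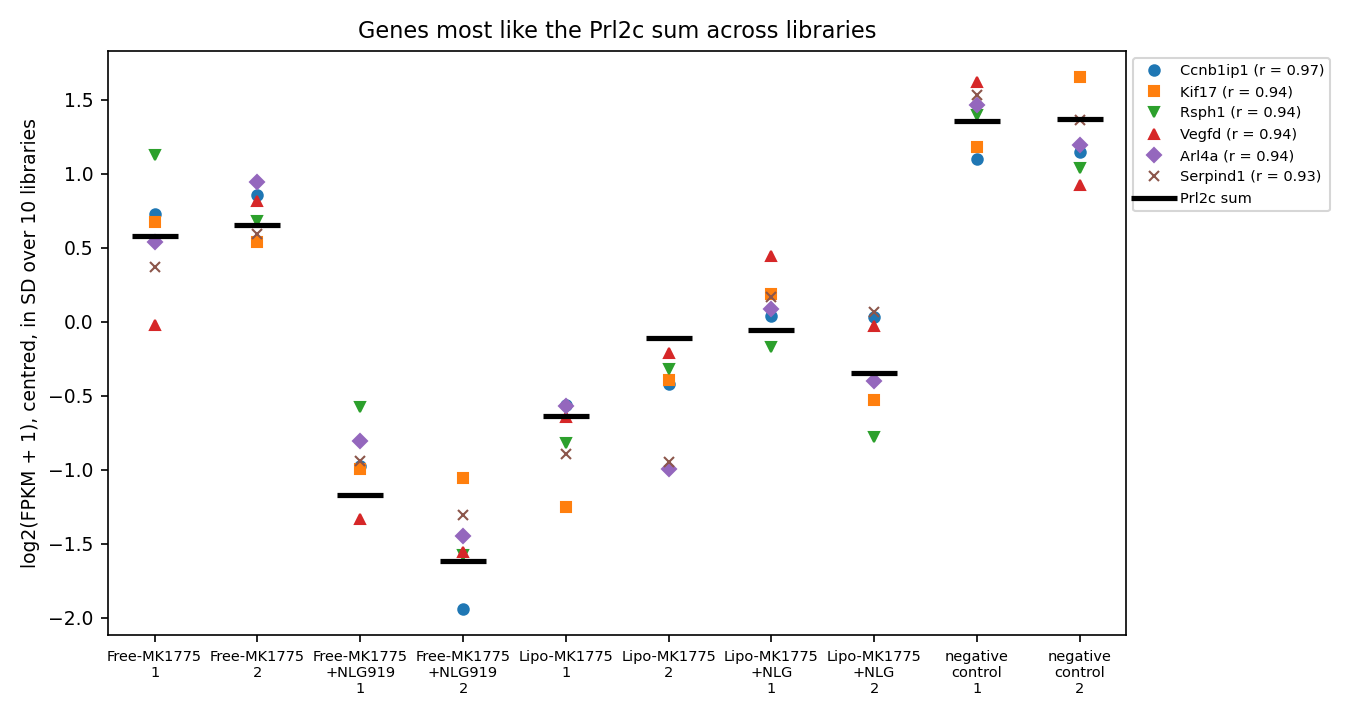
Levels of the 6 genes most like the Prl2c sum, and of the sum itself, as log2(FPKM + 1) centred on the mean and divided by the SD over 10 libraries. Symbols are genes and bars are the Prl2c sum. The symbols follow the bars from the low Free-MK1775+NLG919 libraries to the high negative control libraries, with r between 0.932 and 0.968.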

How the data were processed

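RNA was measured in 10 libraries of mouse tumours, 2 in each of 5 groups taken from the labels. The deposited values are FPKM per transcript, computed by the authors; per the submitters' processing notes the tools were FastQC, Trim Galore, HISAT2 and StringTie on build GRCm39, and neither versions, strand setting nor read length is stated. Per the labels' protocols, RNA came from an RNeasy mini plus kit and libraries from a NEBNext Ultra kit. Without a known strand setting, reads of overlapping or antisense genes cannot be told apart, and reads of near-identical copies may be split arbitrarily.

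The table holds 161762 transcripts, of which 21051 lack a symbol. Of these, 14868 were added to the symbol of the locus they overlap and 6183 were left out. FPKM were summed per symbol, and 12820 of 52324 genes were tested, those reaching an FPKM of 1 in 2 or more libraries. With limma 3.58.1 in R 4.3.3, log2(FPKM + 1) of all 10 libraries was fitted by group, with a trend of variance on level. Tests were two-sided, and genes under a Benjamini-Hochberg adjusted p of 0.05 were called. A fold change on this scale understates the change of low genes. Fragments are estimates, so depth is known only in relative terms and limits the precision of levels near 0. The fit was tested on simulated data. Sequences were read from GENCODE M21 and RefSeq tables with Biopython 1.88.

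The members, the gene lists and the tests were chosen with earlier results of these data known. Named were all Prl2c, prolactin family and receptor genes, of each other list the called members or otherwise the 3 with the smallest unadjusted p in Free-MK1775+NLG919, up to 2 neighbours a side and the 6 genes most like the Prl2c sum. Predicted genes and pseudogenes were counted but not named; of marker lists, sums are given. Krt8, Krt18, Krt7, Epcam, Krt19, Cldn7, Pdgfra, Gcm1, Tpbpa, Ctsq, Psg19, Syna, Eomes and Hand1 were named outside this rule, after their values were seen. Alternatives were another pseudocount, other scalings, other transcript sums, no filter, no variance trend, a replicate block, leaving out each library in turn, and fitting the compared groups alone.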

Additional observations from a re-analysis of the deposited data

Results flagged for a closer look

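An assembled transcript without a symbol, a single exon of 204 bases between bases 12820152 and 12820355 of chromosome 13 (GRCm39), lies just beyond the Prl2c3 gene and enters none of the sums. It was at 1.26 FPKM in Free-MK1775+NLG919 replicate 2 and 0.772 FPKM in Lipo-MK1775 replicate 1, and was listed at 0 in the other treated libraries and in both negative control libraries. It drew attention as a signal in treated libraries alone, outside the values used. On so short a transcript a few fragments give such levels, and their number was not estimated. Both libraries have a high mitochondrial share, and the part of that share in the signal was not tested.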

How the results depend on the processing

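The Prl2c sum stayed below the negative control in all 4 comparisons under every alternative run. Its log2 difference moved beyond the replicate spread with a pseudocount of 0.1 in Free-MK1775+NLG919 (-7.08) and with median-of-ratios scaling in Lipo-MK1775 (-1.86). It also did so with nuclear rescaling in Free-MK1775 (-1.44) and Free-MK1775+NLG919 (-6.18). That rescaling raises every nonzero level while the pseudocount stays at 1, and the effects of scaling and pseudocount were not separated. Leaving out each library gave -1.40 to -1.26 in Free-MK1775, -5.32 to -4.53 in Free-MK1775+NLG919, -3.57 to -2.63 in Lipo-MK1775 and -3.05 to -2.54 in Lipo-MK1775+NLG.

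Counts of list genes called, which include Prl8a9, were less stable. In Free-MK1775+NLG919 the 4 became 2 with a pseudocount of 0.1, 0 with median-of-ratios scaling, 1 with nuclear rescaling, 0 with symbol-carrying transcripts only, 1 without the filter, 2 without the variance trend and 10 with only the groups compared. They became 0 without the 3 libraries of high mitochondrial share, an alternative chosen after seeing the data that leaves 1 library in that group and none in Lipo-MK1775; the lone library is assumed to vary like the other groups. Leaving out each library gave 0 to 52, namely 1 without negative control replicate 1, 8 without negative control replicate 2, 52 without Free-MK1775+NLG919 replicate 1, 0 without its replicate 2, and 1 without either Lipo-MK1775 library. In Lipo-MK1775 the 61 became 15 with median-of-ratios scaling, 36 with nuclear rescaling and 40 without the filter, and ran from 0 to 64 with each library left out, at 32 without negative control replicate 1 and 0 without Lipo-MK1775 replicate 1. In Lipo-MK1775+NLG the range was 0 to 1, with 1 without negative control replicate 2, and in Free-MK1775 it was 0 to 0. Fewer samples or another total change what is tested; the cause was not tested further. With median-of-ratios scaling 4 signs turned in Lipo-MK1775, to 0.15 for M6pr, 0.074 for Ghr, 0.32 for Phlda2 and 0.010 for Lgals8.

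Replicate numbers did not pair the samples: over 10 pairs of groups the correlation of replicate differences ran from -0.34 to 0.06, with 0 pairs over 0.1. With the replicate number as a block, 6 list genes were called in Free-MK1775+NLG919, 61 in Lipo-MK1775 and 0 in the other groups, and the differences of the Prl2c sum were unmoved.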
